A study of Rattus norvegicus with 12 samples.

Results

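The genes described here mark the cells of the blood vessel wall. They are 5 endothelial genes (Cldn5, Pecam1, Flt1, Cdh5 and Tek) and 5 mural genes, of which Pdgfrb and Rgs5 are most typical of pericytes and Acta2, Tagln and Myh11 of smooth muscle. They were chosen by symbol as known vascular markers, and all 10 were found among the 17172 genes counted. All 10 also passed the filter on low counts that left 11750 genes for testing. Total RNA depleted of ribosomal RNA was sequenced as single 100 bp reads from ventral dentate gyrus, the granule cell layer region of the hippocampus, in male rats on a Sprague-Dawley background, with 3 libraries in each of 4 groups. The LAC responder and LAC non-responder groups were Flinders Sensitive Line (FSL) rats that drank L-acetyl-carnitine (LAC) dissolved in tap water (0.3% w/v), which came to roughly 210 mg/kg a day over the 7 days it was offered. FSL vehicle rats were of the same line and drank tap water, and FRL vehicle rats drank tap water and belonged to the Flinders Resistant Line (FRL), the control line. The sources used here do not say how responders were told from non-responders, how old the rats were, or how many animals a library holds, and FSL vehicle was not divided by response.

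Brain vessels are lined by endothelial cells, which are sealed to each other by tight and adherens junctions and so form the blood-brain barrier. Pericytes sit on capillaries, held there by PDGF-B from the endothelium acting on its receptor on the pericyte, while smooth muscle cells wrap arteries and arterioles and contract through smooth muscle actin and myosin. Larger arteries with thick smooth muscle coats run in the meninges and the hippocampal fissure. In a bulk tissue sample, fewer cells of a type and less RNA per cell cannot be told apart.

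Gene counts summed to between 5905390 and 8137620 per library, and the lowest count of any member in any library was 25 (Acta2). Levels are given as CPM, the gene's count scaled to a common library size with TMM factors, which compares libraries for one gene but not one gene with another. Several libraries stood apart in marker lists other than the vascular ones. Whether the meningeal and fibroblast markers among these also come from cells of the vessel wall was not tested. The summed level of 16 meningeal and fibroblast markers was 3668 CPM in FSL vehicle 3 and 1264 CPM in FSL vehicle 2, against 259 to 494 CPM in responders and 339 to 585 CPM in FRL vehicle. Ttr, which encodes transthyretin and is made by choroid plexus, was highest in non-responder 1, FSL vehicle 1 and FSL vehicle 3, with 5384, 2781 and 289 CPM, against at most 40.1 CPM in the other 9 libraries. Prox1, a transcription factor of granule neurons, was low in responder 1 and FRL vehicle 2, with 9.18 and 10.4 CPM. Responder 1 was also highest in 6 thalamic neuron markers, which summed to 486 CPM there and to 119 to 247 CPM in the other 11 libraries; Tcf7l2, one of them, had 156 CPM there and at most 20.4 CPM in the others.

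The 10 genes did not vary alike across the 12 libraries. From the lowest to the highest library the CPM differed 24.97-fold for Acta2, 16.7-fold for Myh11, 12.7-fold for Tagln and 9.30-fold for Cdh5. The other 6 genes differed 1.56-fold (Rgs5) to 3.47-fold (Pdgfrb). The split did not follow the division into endothelial and mural genes. The 3 smooth muscle genes and the endothelial Cdh5 spanned a wide range, and the pericyte genes and the other endothelial genes a narrower one. Narrower holds among the members only. By SD of log2 CPM, these 6 genes still ranked from percentile 57.5 (Rgs5) to percentile 87.7 (Pdgfrb) of all tested genes. All 10 genes had their highest level in FSL vehicle 3. The plot of levels by library shows this for each gene.

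**Figure D1:**
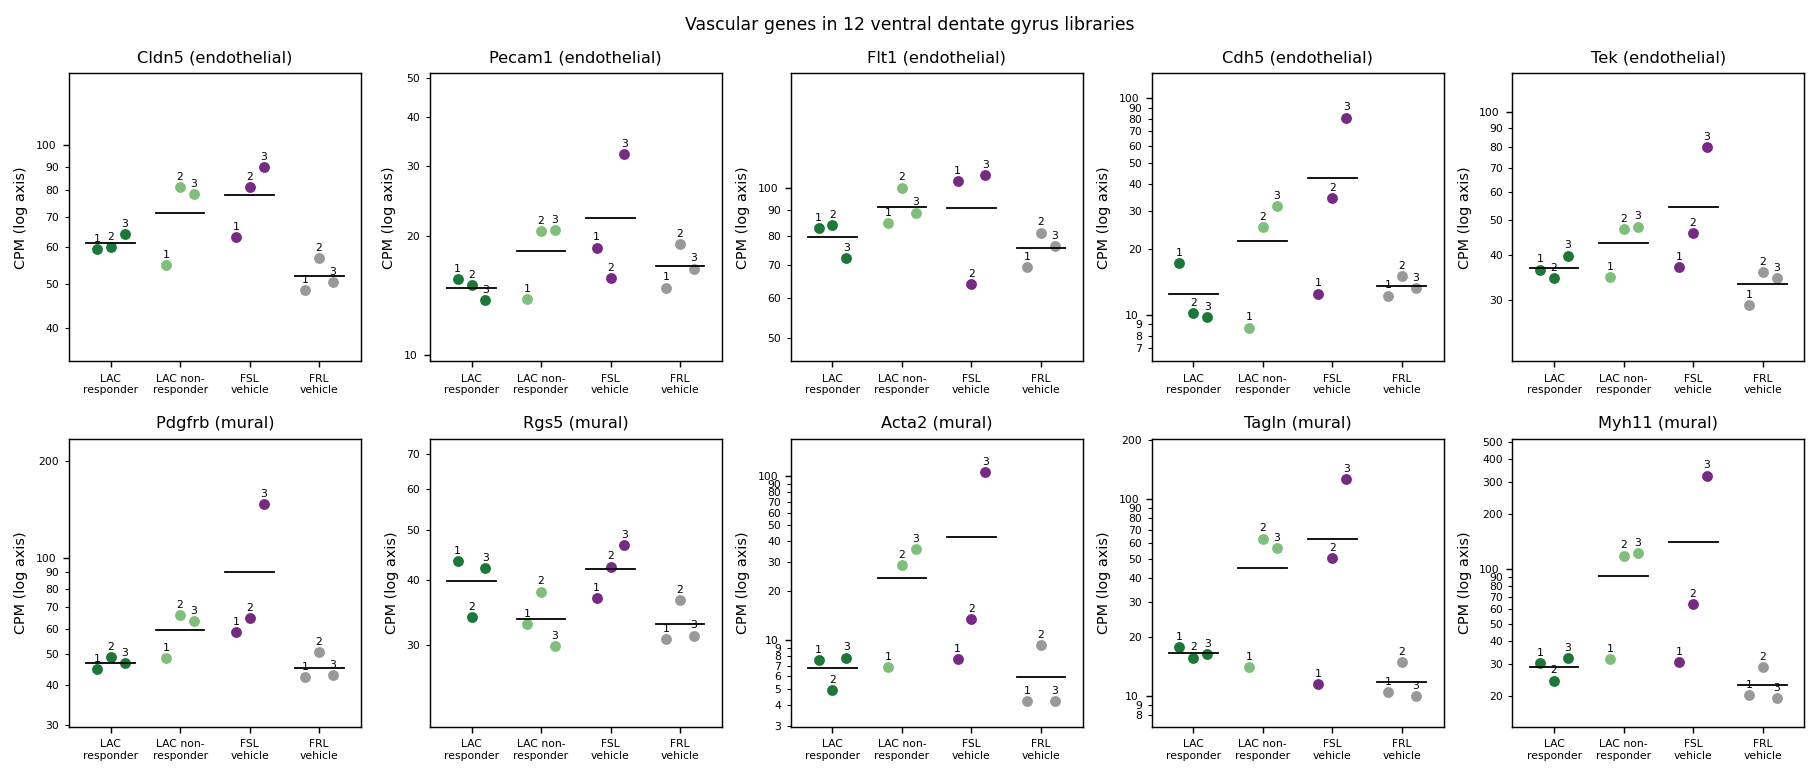
CPM (log axis) of the 10 vascular genes in each library, by group; points are libraries labelled with their replicate number and the line is the group mean (n = 3). FSL vehicle 3 is the highest library in every panel, at 325 CPM for Myh11 and 106 CPM for Flt1.

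Among the endothelial genes, 3 encode proteins of the cell contacts. Cldn5, the main claudin of blood-brain barrier tight junctions, had 59.5, 60.1 and 64.2 CPM in responders, 54.9, 81.0 and 78.2 CPM in non-responders, 63.1, 81.1 and 89.8 CPM in FSL vehicle and 48.5, 56.9 and 50.4 CPM in FRL vehicle (replicates 1, 2 and 3 in this order throughout). The 3 FRL vehicle libraries lay below all 3 FSL vehicle libraries, and among the LAC-treated libraries only non-responder 1 fell within the FRL range. Pecam1, an adhesion molecule shared by endothelium, platelets and some leukocytes, had 15.5, 15.0 and 13.8 CPM in responders, 13.8, 20.6 and 20.6 CPM in non-responders, 18.7, 15.6 and 32.2 CPM in FSL vehicle and 14.8, 19.1 and 16.5 CPM in FRL vehicle. FSL vehicle 3 was far above the other 11 libraries, and the responders lay just below all 3 FSL vehicle libraries. Cdh5, the endothelial cadherin of adherens junctions, had 17.3, 10.2 and 9.71 CPM in responders, 8.70, 25.3 and 31.5 CPM in non-responders, 12.5, 34.5 and 81.0 CPM in FSL vehicle and 12.2, 15.1 and 13.3 CPM in FRL vehicle. Here FSL vehicle 2 and 3 and non-responders 2 and 3 were high, while FSL vehicle 1 lay among the FRL vehicle libraries and non-responder 1 below all of them.

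The other endothelial members are receptors. Flt1, a VEGF receptor that also acts as a trap for the ligand, had 82.9, 84.1 and 72.3 CPM in responders, 85.1, 100.0 and 89.1 CPM in non-responders, 103, 64.2 and 106 CPM in FSL vehicle and 69.4, 81.3 and 76.3 CPM in FRL vehicle. FSL vehicle held both the lowest and the highest of the 12 libraries for Flt1, and FSL vehicle 2, which was high in Cdh5, was the low one. Tek, the receptor of the angiopoietins, had 36.5, 34.6 and 39.9 CPM in responders, 34.8, 47.3 and 48.0 CPM in non-responders, 37.1, 46.1 and 79.8 CPM in FSL vehicle and 29.1, 36.0 and 34.6 CPM in FRL vehicle. For Tek all 3 FSL vehicle libraries lay above all 3 FRL vehicle libraries, and responders overlapped both groups.

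The pericyte genes differed from each other. Pdgfrb, the PDGF-B receptor of pericytes that smooth muscle cells and fibroblasts also carry, had 44.8, 49.0 and 46.9 CPM in responders, 48.5, 66.2 and 63.3 CPM in non-responders, 58.5, 64.8 and 147 CPM in FSL vehicle and 42.4, 50.8 and 42.9 CPM in FRL vehicle. All 3 FSL vehicle libraries were above every FRL vehicle library and every responder, and FSL vehicle 3 was the highest of the 12. Rgs5, a regulator of G protein signalling that marks brain pericytes, had 43.6, 34.1 and 42.2 CPM in responders, 33.0, 38.1 and 29.9 CPM in non-responders, 37.0, 42.5 and 46.8 CPM in FSL vehicle and 30.9, 36.6 and 31.3 CPM in FRL vehicle. Rgs5 was the one mural gene whose responder mean exceeded its non-responder mean (40.0 ± 5.15 against 33.7 ± 4.11 CPM, mean ± SD, n = 3 each).

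The 3 smooth muscle genes moved together between libraries. Acta2, smooth muscle actin, had 7.59, 4.95 and 7.82 CPM in responders, 6.86, 28.6 and 35.9 CPM in non-responders, 7.62, 13.4 and 106 CPM in FSL vehicle and 4.24, 9.33 and 4.26 CPM in FRL vehicle. Tagln, an actin-binding protein of smooth muscle also called SM22, had 17.8, 15.7 and 16.3 CPM in responders, 14.1, 63.1 and 56.6 CPM in non-responders, 11.5, 50.3 and 127 CPM in FSL vehicle and 10.5, 14.9 and 10.04 CPM in FRL vehicle. Myh11, the myosin heavy chain of smooth muscle, had 30.2, 24.3 and 32.4 CPM in responders, 31.8, 118 and 122 CPM in non-responders, 30.8, 63.7 and 325 CPM in FSL vehicle and 20.3, 28.9 and 19.4 CPM in FRL vehicle. In all 3 genes the same 4 libraries were the highest, namely FSL vehicle 3, FSL vehicle 2 and non-responders 2 and 3. FSL vehicle 1 and non-responder 1 stood instead near the responders and FRL vehicle. The SD of FSL vehicle exceeded its mean for Acta2 (42.3 ± 55.2 CPM) and Myh11 (139.8 ± 161 CPM).

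Promoter sequences are shown for Acta2, Rgs5 and Cldn5. The first is the member of widest range, and the others are a mural and an endothelial gene of narrower range. A window of 250 bases before to 50 after the start was present for 4 of the 10 members in the RefSeq table (assembly GRCr8): Acta2, Rgs5, Cldn5 and Flt1. Capitals mark matches, on either strand, to the CArG box, the site of serum response factor, read with at most 1 G or C among its inner 6 bases, to the MCAT element (CATTCC), which TEAD factors bind in muscle genes, or to the core of the GC box (GGGCGG), which the factor SP1 reads in many promoters.
Acta2 (chr1:241172454-241172753, minus strand): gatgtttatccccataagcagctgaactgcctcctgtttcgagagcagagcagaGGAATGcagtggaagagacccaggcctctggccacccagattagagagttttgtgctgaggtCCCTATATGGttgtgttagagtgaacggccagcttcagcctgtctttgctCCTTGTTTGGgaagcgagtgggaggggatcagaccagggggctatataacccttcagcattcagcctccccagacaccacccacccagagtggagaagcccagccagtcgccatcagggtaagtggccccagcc
Rgs5 (chr13:84380827-84381126, plus strand): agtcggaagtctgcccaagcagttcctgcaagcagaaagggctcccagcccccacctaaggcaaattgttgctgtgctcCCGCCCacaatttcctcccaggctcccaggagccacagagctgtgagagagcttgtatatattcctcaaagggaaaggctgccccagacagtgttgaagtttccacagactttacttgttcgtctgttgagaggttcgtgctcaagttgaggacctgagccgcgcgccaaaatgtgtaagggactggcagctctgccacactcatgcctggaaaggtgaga
Cldn5 (chr11:95718549-95718848, minus strand): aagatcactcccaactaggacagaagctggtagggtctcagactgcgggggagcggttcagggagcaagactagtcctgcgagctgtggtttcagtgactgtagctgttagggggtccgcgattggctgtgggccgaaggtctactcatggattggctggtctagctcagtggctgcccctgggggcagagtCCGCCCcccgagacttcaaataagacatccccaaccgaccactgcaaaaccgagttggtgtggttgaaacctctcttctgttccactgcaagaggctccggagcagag
The Acta2 window held CCCTATATGG at -134 to -125 and CCTTGTTTGG at -84 to -75, counted from the start, with the MCAT element as its reverse complement GGAATG at -196 to -191. The Rgs5 and Cldn5 windows each held 1 GC box, written CCGCCC on the strand shown, and neither of the other motifs. None of the matches overlapped. Of all 33469 windows in the table, 9.424% held a CArG box read this way, 14.19% an MCAT element and 33.06% a GC box core. Of 16 windows of further smooth muscle genes, 0 held the CArG box so read and 3 held the MCAT element. These matches describe letters in the windows only.

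The mean of the mural genes moved more across libraries than that of the endothelial genes, through the smooth muscle genes. Per library, the mean log2 CPM of the 5 mural genes minus that of the 5 endothelial genes averaged -0.48 ± 0.15 in responders, 0.037 ± 0.37 in non-responders, 0.038 ± 0.72 in FSL vehicle and -0.74 ± 0.20 in FRL vehicle (mean ± SD, n = 3 each, a description with no test). In single libraries it was 0.78 in FSL vehicle 3, 0.28 and 0.22 in non-responders 2 and 3 and -0.025 in FSL vehicle 2. In the other 8 libraries it was -0.92 to -0.32. High and low values thus occurred side by side within FSL vehicle and within the non-responders. CPM does not compare one gene with another, so the sign of this value says nothing by itself. Only its differences between libraries or groups can be read. Relative to the mean of FRL vehicle, FSL vehicle 3 stood 3.81 log2 units higher in the mean of the smooth muscle genes, 1.10 in that of the pericyte genes and 1.21 in that of the endothelial genes. Non-responder 3 stood 2.44, 0.18 and 0.58 log2 units higher in these means. With Pdgfrb and Rgs5 alone as the mural genes, the FSL vehicle minus FRL vehicle difference of this value was -0.00253, against 0.78 with all 5 genes, neither with a test.

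**Figure D2:**
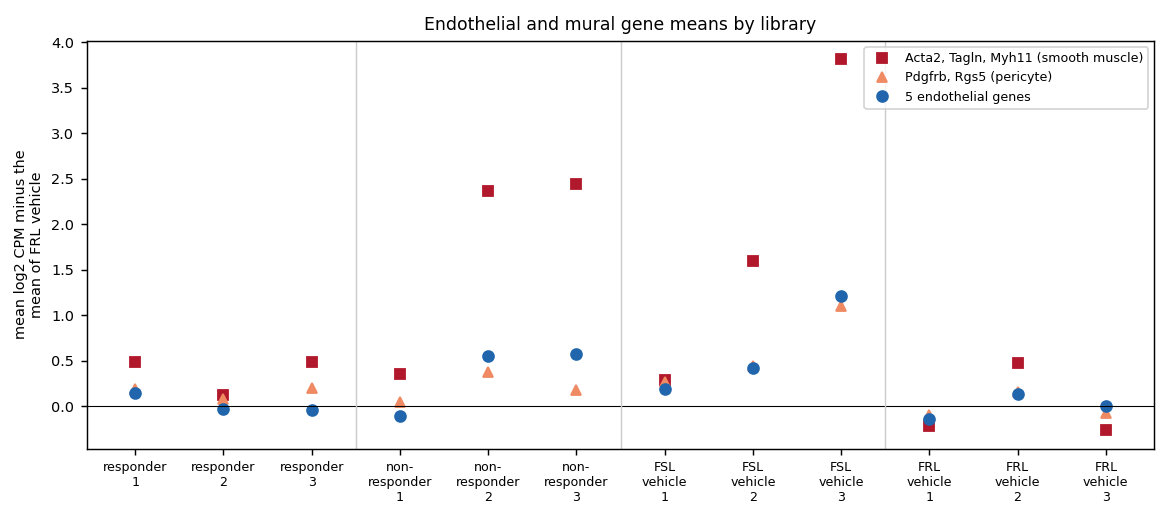
Mean log2 CPM of the 3 smooth muscle, 2 pericyte and 5 endothelial genes in each library, minus the mean of the 3 FRL vehicle libraries. Smooth muscle genes stand at 3.81 in FSL vehicle 3 and at 2.37 and 2.44 in non-responders 2 and 3, above the pericyte and endothelial means of the same libraries.

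FSL and FRL rats without LAC were set against each other first, which asks how the lines differ. All 10 members had higher fitted means in FSL vehicle than in FRL vehicle, and the smooth muscle genes had the widest gaps. The log2 fold change was 2.82 ± 0.95 for Acta2, 2.61 ± 0.79 for Myh11 and 2.41 ± 0.74 for Tagln (± SE; FSL vehicle over FRL vehicle). It was 1.66 ± 0.61 for Cdh5, 0.99 ± 0.29 for Pdgfrb and 0.71 ± 0.24 for Tek, and 0.59 ± 0.16 for Cldn5 with the smallest p of the members. Pecam1, Rgs5 and Flt1 had 0.40 ± 0.25, 0.36 ± 0.13 and 0.27 ± 0.16. None of the 10 passed an adjusted p of 0.05 (edgeR quasi-likelihood test with Benjamini-Hochberg adjustment over 11750 genes, of which 0.0681% passed), and their adjusted p ran from 0.238 for Cldn5 to 0.508 for Pecam1.

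At an unadjusted p under 0.05 by the same edgeR fit, 8 of the 10 were higher in FSL vehicle (3 endothelial, 5 mural), where 9.35% of all genes were; Pecam1 and Flt1 were not among them. In Cldn5, Tek, Pdgfrb, Rgs5 and Myh11 all FSL vehicle libraries lay above all FRL vehicle libraries, as they did in 7.56% of genes. By DESeq2 1 member passed its adjusted p (Cldn5, 0.59, adjusted p = 0.0499) and by limma-voom 0. At an unadjusted p under 0.05 limma-voom gave 4 members, with no share of all genes taken. Without FSL vehicle 3, 2 members (Cldn5 and Pdgfrb) had an unadjusted p under 0.05, as did 6.28% of genes in either direction. The 9.35% above counts higher genes only, so these shares are not like for like. The log2 fold change of Acta2 was then 0.83 and that of Myh11 1.06. Without FSL vehicle 1, 4 members passed the adjusted p (Cldn5, Pdgfrb, Tagln and Myh11), as did 271 genes in all.

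The second comparison asked what accompanies a response to LAC. Responders had lower fitted means than FSL vehicle in all 10 members, with the lowest values again in the smooth muscle genes. The log2 fold change was -2.64 ± 0.93 for Acta2, -2.27 ± 0.77 for Myh11 and -1.93 ± 0.72 for Tagln (responder over FSL vehicle). Among endothelial genes Cdh5 had -1.79 ± 0.61, Pecam1 -0.58 ± 0.25, Tek -0.56 ± 0.24, Cldn5 -0.35 ± 0.16 and Flt1 -0.19 ± 0.16. Pdgfrb had -0.94 ± 0.29 and Rgs5 -0.078 ± 0.13. Since FSL vehicle is the same 3 libraries as in the line comparison, these values are not a second observation of the high FSL vehicle levels. No member passed the adjusted p by edgeR's quasi-likelihood test, where 0% of genes did, and their adjusted p ran from 0.266 for Pdgfrb to 0.810 for Rgs5; by DESeq2 and limma-voom the count of members was also 0.

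At an unadjusted p under 0.05 by the edgeR fit, 8 members were lower in responders, all but Flt1 and Rgs5, against 9.17% of all genes. By limma-voom 1 member had such a p, in a fit whose share of all genes was not taken. The groups share an estimate of spread in the edgeR fit but differed in it, as in Myh11 (SD 161 CPM in FSL vehicle, 4.20 CPM in responders). Groups did not overlap in Pecam1 and Pdgfrb, both lower in responders, as in 6.12% of genes. Without FSL vehicle 3 the edgeR count at the unadjusted p was 1 (Pdgfrb, -0.40), where 5.38% of genes had such a p. Without FSL vehicle 1 it was 8 (16.3% of genes), and Cdh5, Pdgfrb and Tagln passed the adjusted p, among 349 genes in all. The count was 4 without responder 1 (12.5% of genes), 3 without responder 2 (10.2%) and 4 without responder 3 (9.84%). These shares with libraries left out count genes in either direction. The 9.17% counts lower genes only, so it cannot be set beside them as a like share. Beside FRL vehicle, a pair of groups that was not tested, Pdgfrb had like means (46.9 ± 2.12 CPM in responders, 45.4 ± 4.68 CPM in FRL vehicle, mean ± SD, n = 3 each). Tagln (16.6 ± 1.04 CPM in responders, 11.8 ± 2.69 CPM in FRL vehicle) and Cldn5 (61.3 ± 2.57 CPM in responders, 51.9 ± 4.41 CPM in FRL vehicle) had higher means in responders. Among all members, only Pecam1 (14.8 ± 0.91 CPM in responders, 16.8 ± 2.15 CPM in FRL vehicle) and Cdh5 (12.4 ± 4.24 CPM in responders, 13.5 ± 1.44 CPM in FRL vehicle) had lower means there.

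Setting non-responders against FSL vehicle asks what goes with LAC in the absence of a response. Their log2 fold changes had wide errors around moderate values: -0.84 ± 0.85 for Acta2, -0.50 ± 0.68 for Tagln, -0.63 ± 0.72 for Myh11 and -0.97 ± 0.59 for Cdh5 (non-responder over FSL vehicle). Pdgfrb had -0.61 ± 0.29, Tek -0.33 ± 0.24, Pecam1 -0.27 ± 0.25, Cldn5 -0.13 ± 0.16 and Flt1 0.0067 ± 0.16. Rgs5, at -0.32 ± 0.13, was the 1 member with an unadjusted p under 0.05 (4.21% of all genes), and its groups overlapped, as did those of every member, where 7.78% of genes did not overlap. By edgeR's quasi-likelihood test 0 members and 0% of genes passed the adjusted p, and DESeq2 and limma-voom also called 0 members. The smooth muscle genes turned direction without FSL vehicle 3, where Acta2, Tagln and Myh11 had 1.17, 0.52 and 0.94, higher in non-responders, with 0 members at an unadjusted p under 0.05 (2.70% of genes). Without FSL vehicle 1 the count was 4 (Cdh5, Pdgfrb, Rgs5 and Tek), all lower in non-responders, where 1188 of 11884 genes had such a p. It was 0 without non-responder 1 or 3 (3.31% and 3.35% of genes).

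Responders were set against non-responders to ask what separates the LAC-treated groups; whether their rats differed before treatment cannot be told apart from LAC. Responders had lower fitted means in 9 members, among them Acta2 (-1.81 ± 0.92), Myh11 (-1.65 ± 0.76), Tagln (-1.42 ± 0.71) and Cdh5 (-0.81 ± 0.61; log2 fold change, responder over non-responder). The values were -0.34 ± 0.29 for Pdgfrb, -0.31 ± 0.25 for Pecam1, -0.23 ± 0.24 for Tek, -0.22 ± 0.16 for Cldn5 and -0.20 ± 0.16 for Flt1, and Rgs5 alone was positive at 0.25 ± 0.13. By the edgeR quasi-likelihood fit 0 members passed the adjusted p (0% of genes) and 0 had an unadjusted p under 0.05 (3.14% of genes); DESeq2 and limma-voom called 0. Flt1 was the member whose groups did not overlap, lower in responders, as in 5.55% of genes. Non-responder 1 lay near the responders in the smooth muscle genes and Cdh5. Leaving out the 3 libraries highest in Ttr, non-responder 1 among them, keeps 2 non-responders, and then Tagln (-1.86) and Myh11 (-2.06) passed the adjusted p among 11 genes in all, and 9 members had an unadjusted p under 0.05 (8.42% of genes). Without FSL vehicle 3, which shares only the estimate of spread with this comparison, 4 members had such a p (Acta2, Tagln, Myh11 and Pdgfrb; 5.03% of genes), and without FSL vehicle 1 it was 3 (Acta2, Tagln and Myh11; 3.90%). Without non-responder 1 it was 4 (Acta2, Tagln, Myh11 and Cldn5; 2.90%), and without non-responder 2 (2.61%) or responder 2 (3.83%) it was 1, Rgs5.

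**Figure D3:**
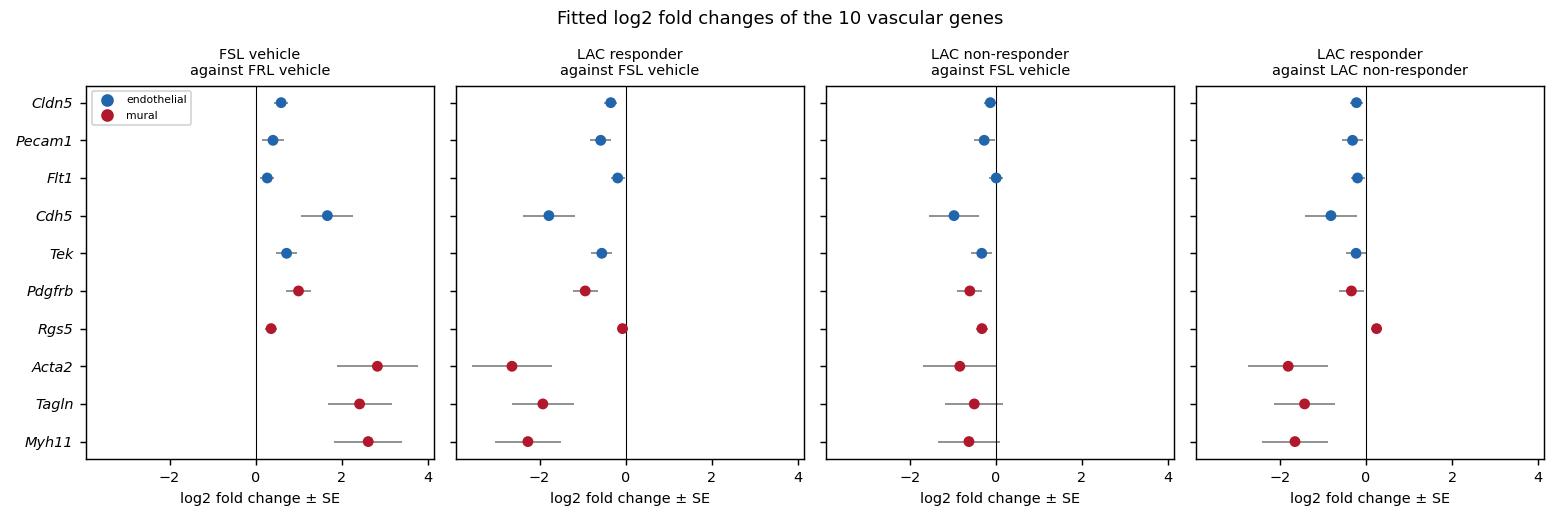
Fitted log2 fold change (point) and SE (bar) of each gene in the 4 comparisons, first-named group over second. The smooth muscle genes and Cdh5 have the widest bars; in FSL vehicle against FRL vehicle Acta2 stands at 2.82 ± 0.95 and Flt1 at 0.27 ± 0.16.

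Other vascular genes were read from 6 lists by counts and medians, beside a median over all tested genes of -0.00829 (FSL vehicle over FRL vehicle) and 0.012 (responder over FSL vehicle) on the log2 scale. Of all tested genes, 48.4% had positive values in FSL vehicle against FRL vehicle and 9.35% were higher at an unadjusted p under 0.05; in responders against FSL vehicle 52.0% were positive and 9.17% lower at such a p. None of the lists' genes passed the adjusted p in any of the 4 comparisons by the edgeR fit with all 12 libraries. Without FSL vehicle 1, when 271 and 349 genes in all passed, the genes past it numbered 2 endothelial, 1 barrier, 4 pericyte, 2 smooth muscle, 3 ligand or receptor and 3 basement membrane genes in FSL vehicle against FRL vehicle, and 1, 0, 3, 3, 3 and 3 in the same order of lists in responders against FSL vehicle. Further endothelial genes all lay on one side. All 19 tested had positive values in FSL vehicle against FRL vehicle (median log2 fold change 0.61), 12 with an unadjusted p under 0.05. The smallest p belonged to Sox18, a transcription factor of endothelium (1.08 ± 0.24), Egfl7, a secreted endothelial protein (0.91 ± 0.21), and Esam, an adhesion molecule (0.77 ± 0.21). All 19 had negative values in responders against FSL vehicle (median -0.71; 13 with such a p), led by Egfl7 (-0.74 ± 0.21), Fli1 (-1.04 ± 0.31) and Sox18 (-0.74 ± 0.23). Both medians were smaller without FSL vehicle 3, at 0.36 with 5 genes and -0.34 with 4 genes at an unadjusted p under 0.05. Without that library 6.28% and 5.38% of all genes had such a p, in either direction. The 9.35% and 9.17% count 1 direction only and are not like shares.

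Genes of the blood-brain barrier had values of both signs. Of 13 tested, 8 had positive and 5 negative values in FSL vehicle against FRL vehicle (median log2 fold change 0.20; 5 higher and 1 lower at an unadjusted p under 0.05). Occludin (Ocln), a tight junction protein, had 0.56 ± 0.17, the amino acid transporter Slc38a5 1.37 ± 0.43 and the drug efflux pump Abcb1a 0.71 ± 0.26. In responders against FSL vehicle the median was -0.29 (4 positive, 9 negative; 1 higher and 3 lower at such a p), with Ocln at -0.64 ± 0.17, Abcb1a at -0.72 ± 0.26 and Abcc4 at -0.38 ± 0.14. Leaving out FSL vehicle 3 gave medians of 0.17 (2 higher, 0 lower) and -0.21 (1 lower, 0 higher), where 6.28% and 5.38% of all genes had such a p in either direction. Ocln was also lower in responders than in non-responders (-0.56 ± 0.17, no overlap of groups, as in 5.55% of genes lower there, adjusted p = 0.992 by edgeR).

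Smooth muscle genes beyond the members had larger medians than the endothelial and pericyte lists. In FSL vehicle against FRL vehicle the median log2 fold change of 19 tested was 1.44 (16 positive; 10 higher and 1 lower at an unadjusted p under 0.05), with Synpo2, an actin-binding protein, at 2.46 ± 0.69, the myosin light chain Myl9 at 1.87 ± 0.57 and its kinase Mylk at 1.44 ± 0.53. In responders against FSL vehicle it was -1.09 (16 negative; 12 lower and 1 higher), with Myl9 at -1.92 ± 0.57 and the integrin Itga8 at -1.09 ± 0.33. Without FSL vehicle 3 these medians were 0.54 (1 higher and 1 lower at the unadjusted p) and -0.40 (2 lower), and with the mean of the meningeal markers as a covariate they turned to -0.22 and 0.36. Pericyte genes were mixed: in FSL vehicle against FRL vehicle 11 of 15 were positive (median 0.66; 7 higher and 1 lower at such a p), led by Atp13a5 (1.01 ± 0.27), the secreted protein vitronectin (Vtn, 1.90 ± 0.62) and Ifitm1 (2.09 ± 0.77). In responders against FSL vehicle 10 of 15 were negative (median -0.36; 6 lower), led by the transcription factor Tbx18 (-2.59 ± 0.79), Ifitm1 (-2.43 ± 0.79) and Anpep (-1.41 ± 0.52). The pericyte medians without FSL vehicle 3 were 0.23 and -0.12, with 1 gene at the unadjusted p in each comparison. Without that library 6.28% and 5.38% of all genes had such a p in these comparisons, in either direction. Those shares also stand beside the smooth muscle counts without FSL vehicle 3.

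Among the signals between vessel cells, Tgfbr2, the type 2 receptor of TGF-beta, had the smallest p among 25 ligands and receptors both in FSL vehicle against FRL vehicle (log2 fold change 1.45 ± 0.28, adjusted p = 0.127 by edgeR) and in responders against FSL vehicle (-1.35 ± 0.28, adjusted p = 0.244), with no overlap of groups in either. Of all genes, 7.56% and 6.12% did not overlap in these directions. Angpt1, the ligand that activates Tek, had 1.11 ± 0.34 and -1.11 ± 0.34 in these comparisons, and -1.01 ± 0.34 in non-responders against FSL vehicle. The medians of this list were 0.57 (22 of 25 positive, 7 higher at an unadjusted p under 0.05) and -0.51 (22 of 25 negative, 8 lower). All 7 tested basement membrane genes were positive in FSL vehicle against FRL vehicle (median 1.37; 6 higher), such as the laminin Lamb2 (1.37 ± 0.37) and Sparc (0.79 ± 0.19). All 7 were negative in responders against FSL vehicle (median -1.20; 6 lower), such as Lamb2 (-1.46 ± 0.37) and fibronectin (Fn1, -2.45 ± 0.70). The medians of ligands and receptors without FSL vehicle 3 were 0.15 and -0.20 (4 higher and 3 lower at the unadjusted p), and those of basement membrane genes 0.63 and -0.62 (3 higher and 2 lower). Of all genes, 6.28% and 5.38% then had such a p in either direction. The plot of fold changes by list sets these groups beside the members.

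**Figure D4:**
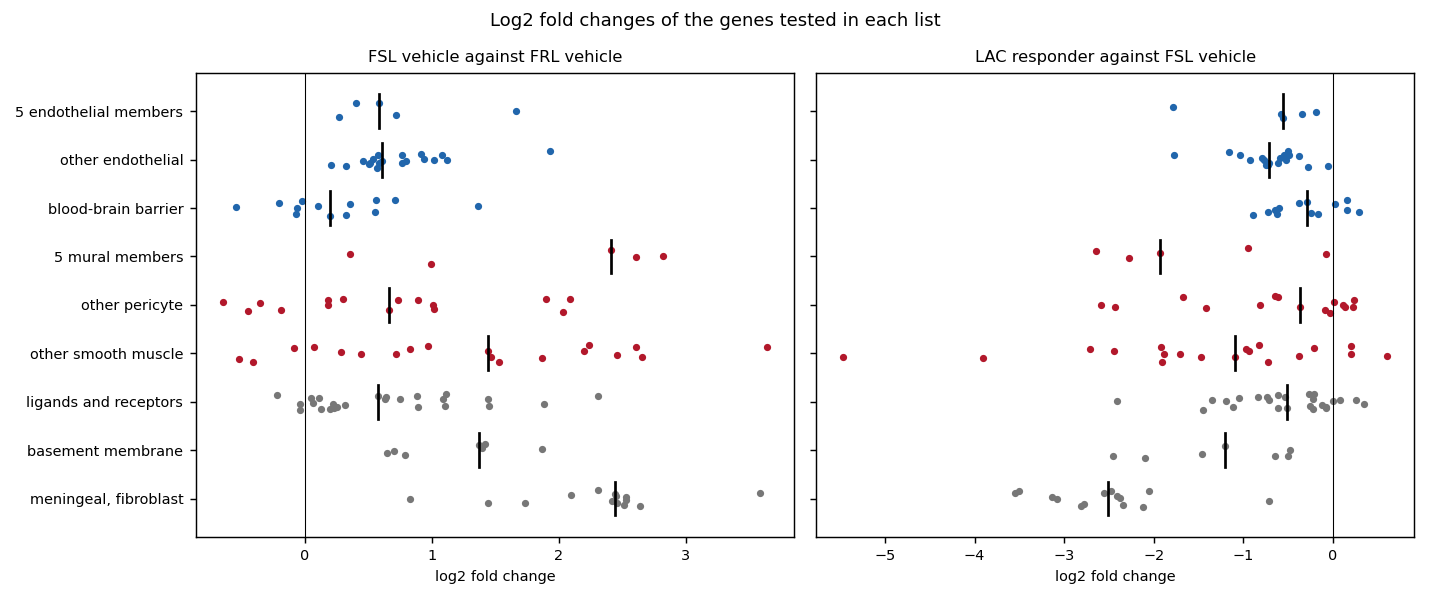
Log2 fold changes of the tested genes of each list (points) with the list median (bar) in FSL vehicle against FRL vehicle and in responder against FSL vehicle. The 5 mural members have medians of 2.41 and -1.93, the 5 endothelial members 0.59 and -0.56, and the meningeal and fibroblast markers 2.45 and -2.52.

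Non-responders against FSL vehicle and responders against non-responders gave medians below 0 in all 6 lists by the fit of 12 libraries with no covariate. For non-responders against FSL vehicle, leaving out FSL vehicle 3 put the medians above 0 in 4 of them, such as 0.30 for the other smooth muscle genes. In non-responders the medians ran from -0.52 (pericyte) to -0.082 (blood-brain barrier), and without FSL vehicle 3 the median of the smooth muscle list was 0.30 and that of the endothelial list 0.12. In responders against non-responders they ran from -0.77 (smooth muscle, 17 of 19 negative) to -0.13 (pericyte, 10 of 15 negative). In non-responders against FSL vehicle 4.21% of all genes had an unadjusted p under 0.05. The list genes with such a p included 4 of the endothelial list, all lower, led by Egfl7 (-0.70 ± 0.21). Lower too were 2 pericyte, 3 ligand or receptor and 2 basement membrane genes. Higher were 1 barrier gene and 1 smooth muscle gene, Ppp1r14a, an inhibitor of myosin phosphatase, at 0.69 ± 0.25. In responders against non-responders, where 3.14% of all genes had such a p, the list genes were 3 of the smooth muscle list, Ocln and Tgfbr2 (-0.73 ± 0.28), all lower in responders.

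Meningeal and fibroblast markers followed the same libraries. The 16 meningeal and fibroblast markers, all in the files and with 1 or 2 of them at 0 in a library, summed to 259 to 494 CPM in responders, 625 to 970.4 CPM in non-responders, 501 to 3668 CPM in FSL vehicle and 339 to 585 CPM in FRL vehicle. Dcn, a matrix proteoglycan of fibroblasts, had 21.5, 29.4 and 24.1 CPM in responders, 46.3, 82.4 and 74.7 CPM in non-responders, 44.4, 94.1 and 173 CPM in FSL vehicle and 39.5, 41.0 and 34.4 CPM in FRL vehicle. The 4 libraries high in smooth muscle genes were also the 4 highest in Dcn. Across the 12 libraries the mean log2 CPM of these markers had a Pearson r of 0.962 with Cdh5 (Spearman rho 0.881), 0.913 with Myh11 (rho 0.720) and 0.913 with Acta2 (rho 0.818). The 10 two-sided permutation tests gave adjusted p of 0.0002 (raw 2e-05) for r and 0.0034 (raw 0.00034) for rho in Cdh5, and 0.00052 (raw 0.00019) and 0.0179 (raw 0.0108) in Myh11. The permutations moved the 12 libraries freely across groups. Their p-values therefore do not separate differences between groups from a relation between single libraries. Without FSL vehicle 2 and 3, the libraries farthest from the median, r was 0.892 for Cdh5, 0.841 for Myh11 and 0.872 for Acta2.

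Cldn5 (r = 0.817, rho = 0.664), Pecam1, Tek, Pdgfrb and Tagln also passed these permutation tests, with adjusted p of at most 0.00309 for r and 0.0272 for rho. Without FSL vehicle 2 and 3 their r was 0.659 (Cldn5) to 0.800 (Tagln). Flt1 (r = 0.393, rho = 0.350, permutation adjusted p = 0.207 and 0.266) and Rgs5 (r = 0.457, rho = 0.441, permutation adjusted p = 0.150 and 0.172) did not pass, and without FSL vehicle 2 and 3 their r was 0.545 and -0.0683. These libraries come from 4 groups, which the permutations did not keep apart, and with 3 in each no relation within a group was tested. The meningeal markers themselves differed between groups. All 14 tested were higher in FSL vehicle than in FRL vehicle at an unadjusted edgeR p under 0.05 (9.35% of genes). All 14 were lower in responders than in FSL vehicle at such a p (9.17% of genes). A fit with their mean as a covariate cannot separate a group difference from a difference in these markers. With the meningeal mean as a covariate in the edgeR fit, 0 members had an unadjusted p under 0.05 in FSL vehicle against FRL vehicle, in responders against FSL vehicle or in non-responders against FSL vehicle (5.23%, 5.18% and 3.00% of genes in either direction). The log2 fold changes of Acta2, Myh11 and Cdh5 were then 0.028, 0.30 and -0.13 in FSL vehicle against FRL vehicle, and 0.72, 0.52 and 0.29 in responders against FSL vehicle. Cldn5 and Pdgfrb then had 0.28 and 0.33 in FSL vehicle against FRL vehicle, against 0.59 ± 0.16 and 0.99 ± 0.29 with no covariate, and Rgs5 was the 1 member with such a p in responders against non-responders (0.40; 5.09% of genes). Among the 6 lists, the covariate turned the median of the other smooth muscle genes to -0.22 in FSL vehicle against FRL vehicle (13 of 19 negative; 4 lower and 0 higher at the unadjusted p) and to 0.36 in responders against FSL vehicle (3 higher, 0 lower). The other 5 medians were then 0.010 (pericyte) to 0.35 (basement membrane) in FSL vehicle against FRL vehicle, and -0.091 (basement membrane) to 0.12 (pericyte) in responders against FSL vehicle. In responders against non-responders the covariate put 4 medians above 0, namely pericyte (0.43), smooth muscle (0.063), endothelial (0.062) and basement membrane (0.052), and in non-responders against FSL vehicle it put 1 above 0, smooth muscle (0.11).

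**Figure D5:**
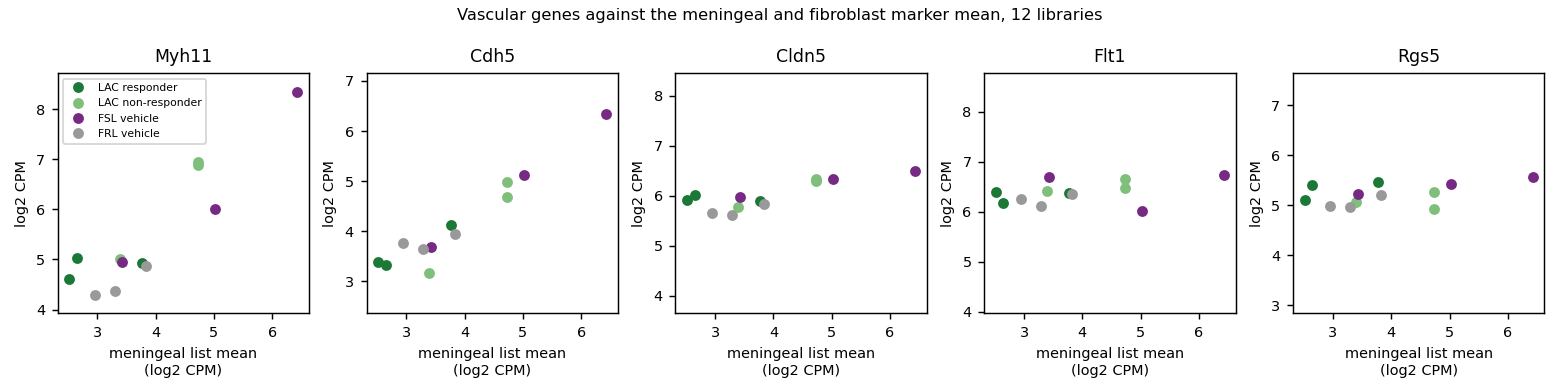
Log2 CPM of 5 vascular genes against the mean log2 CPM of the meningeal and fibroblast markers, 1 point per library, with the same height of axis in each panel. Myh11 and Cdh5 climb with the marker mean (r = 0.913 and 0.962), Cldn5 less steeply, and Flt1 and Rgs5 are near level (r = 0.393 and 0.457).

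Choroid plexus markers did not rank the libraries as the smooth muscle genes did. The 11 choroid plexus markers summed to 14.4 to 50.7 CPM in responders, 19.2 to 6536 CPM in non-responders, 30.8 to 3578 CPM in FSL vehicle and 9.86 to 26.5 CPM in FRL vehicle. The highest libraries were non-responder 1 and FSL vehicle 1, both low in Acta2, Tagln and Myh11. FSL vehicle 3 came next with 393 CPM, and it was the highest library in all of these genes. Non-responder 3, also high in them, followed with 67.8 CPM. The 7 blood cell markers found summed to 222 to 748 CPM in responders, 239 to 549 CPM in non-responders, 257 to 1109 CPM in FSL vehicle and 341 to 774 CPM in FRL vehicle, and were highest in FSL vehicle 3, FRL vehicle 3 and responder 1. Markers of astrocytes, whose end feet cover the vessels, summed to 3267 to 4017 CPM in responders, 3459 to 3909.9 CPM in non-responders, 3541 to 3842 CPM in FSL vehicle and 3439.5 to 4498 CPM in FRL vehicle. The part of blood cells and astrocytes in the vascular results was not tested.

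The genes most like each member over the 12 libraries, by Pearson correlation of log2 CPM and given as a description, differed in kind. Acta2 was closest to Myh11 (r = 0.991), then to the von Willebrand factor gene Vwf (0.974) and Wnt5b (0.972). Myh11 was closest to Acta2, Tagln and Mgp, the last a matrix gene on the meningeal list (0.972 and 0.972 for the last 2). Cdh5 had as its nearest no gene of the vascular lists but Ifitm3 (0.989), Mrc2 (0.989) and Lrrc32 (0.982). Tek was closest to Tie1, the related endothelial receptor (0.972), Vtn and Jag1. Cldn5 was closest to Lgals9, Tagln and Sdpr, Pecam1 to Utrn, Itpr3 and Arhgap31, and Pdgfrb to Tln1, Cald1 and Crispld2. Rgs5 (0.889 with Lman1, 0.883 with the pericyte gene P2ry14, then Manea) and Flt1 (0.937 with Uvssa, then Wnk1 and Pik3c2b) had lower nearest values than the other 8 members. All of these libraries share the groups and the surrounding tissue described above.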

How the data were processed

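The authors deposited raw counts of reads for each gene symbol, 1 table per library. Build rn5 is named, per the submitters' processing notes, with HTSeq 0.6.1, TopHat2 2.0.9, edgeR 3.12.0, Trimmomatic 0.33 and FastQC 0.11.3, none with its role. The library kit keeps strand. Neither the annotation nor the strand setting of the counting is given, so reads of overlapping genes cannot be told apart. Summary lines for reads outside genes (47.7% to 52.7% of counts), ambiguous reads (0.0756% to 0.106%) and reads with several alignments (24.3% to 28.4%) stayed out of library sizes and tests. Leaving out reads with several alignments can lower genes with close copies, such as the actin gene Acta2. A count of 3 equals 0.367 to 0.511 CPM, which covers counting error only.

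Testing used edgeR 4.0.16 under R 4.3.3 with TMM scaling (factors 0.975 to 1.04) and its standard filter on low counts, which kept 11750 of 17172 genes. The quasi-likelihood fit took in all 12 libraries, so that the groups share an estimate of spread, and p-values were adjusted by Benjamini-Hochberg over all tested genes at 0.05. Log2 CPM values used a prior count of 2. The scripts were tested on simulated data. Alternatives were DESeq2 1.42.0, limma-voom (limma 3.58.1), another scaling, no filter, fits of the compared groups alone, a block for the replicate number, the mean of meningeal markers as a covariate, and fits with libraries left out. Same-numbered FSL vehicle and non-responder libraries deviated together (correlations 0.581, 0.212 and 0.426), the only groups where all 3 exceeded 0.1; no label names a pairing. Correlations with marker means used 100000 permutations of the 12 libraries, without regard to group. Promoter windows are from RefSeq, assembly GRCr8.

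The members, lists and tests were chosen with earlier results of these data known. Named genes are the 10 members, the 3 of smallest p per other list and comparison, and the 3 most correlated with each member; the text gives a share of these, and no fold for Actg2, which is near the floor of counts. Counts at an unadjusted p, and list values under other settings, were chosen after seeing the data. The series describes the libraries of a group as biological replicates without tying them to animals, so p-values measure the spread between these libraries. The genes closest in pattern to Tagln are not reported here.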

Additional observations from a re-analysis of the deposited data

How the results depend on the processing

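No member passed the adjusted threshold in the reported fit. In FSL vehicle against FRL vehicle, where 8 genes passed and 8 members had an unadjusted p under 0.05, 168 genes passed by DESeq2 (1 member), 5 by limma-voom (4 members at the unadjusted p), 2 in the compared groups only, 3 with the meningeal covariate (0 members unadjusted), 17 without the 3 choroid-high libraries (1 member, Tagln) and 2 without FRL vehicle 2 and responder 1, both low in granule neuron markers. In responders against FSL vehicle, with 0 genes and 8 unadjusted members, it was 186 genes by DESeq2 and 36 without the choroid-high libraries (1 member, Tagln), and the unadjusted members were 1 by limma-voom, 0 with the covariate and 2 without the granule-low libraries. In non-responders against FSL vehicle, with 0 genes and 1 unadjusted member, DESeq2 gave 2 genes and 2 unadjusted members, the covariate 0 and leaving out the choroid-high libraries 3. In responders against non-responders, with 0 of each, unadjusted members were 1 by DESeq2, 4 in the compared groups only, 1 with the covariate and 9 without the choroid-high libraries, where 11 genes and 2 members passed. Those fits keep 1 FSL vehicle library, assumed to vary like the others. The share of all genes at an unadjusted p under 0.05 was not taken for DESeq2, limma-voom, the compared groups only, the replicate block or the fit without the granule-low libraries. Whether their counts of unadjusted members exceed that share is therefore not known. The cause of these shifts was not tested.

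Signs of log2 fold changes turned as follows. With the meningeal covariate they were -0.066 for Pecam1 and -0.13 for Cdh5 in FSL vehicle against FRL vehicle; 0.032 for Cldn5, 0.29 for Cdh5, 0.11 for Tek, 0.16 for Rgs5, 0.72 for Acta2, 0.75 for Tagln and 0.52 for Myh11 in responders against FSL vehicle; 0.63 for Acta2, 0.55 for Tagln and 0.54 for Myh11 in non-responders against FSL vehicle; and 0.036 for Cldn5, 0.054 for Pecam1, 0.43 for Cdh5, 0.18 for Tek, 0.15 for Pdgfrb, 0.086 for Acta2 and 0.20 for Tagln in responders against non-responders. Without the choroid-high libraries they were -0.10 for Pecam1 and -0.23 for Flt1 (FSL vehicle against FRL vehicle), 0.31 for Flt1 (responders against FSL vehicle), and 0.40 for Pecam1, 0.050 for Tek, 0.000658 for Pdgfrb, 1.27 for Acta2, 0.26 for Tagln and 0.92 for Myh11 (non-responders against FSL vehicle). Flt1 had -0.00638 in that last comparison when the compared groups alone were fitted. The mural minus endothelial difference with pericyte genes only was -0.00253 (FSL vehicle minus FRL vehicle), 0.14 (responder minus FSL vehicle) and 0.27 (responder minus non-responder).

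Leaving out 1 library at a time gave 2 to 271 genes, 0 to 4 members past the adjusted p and 2 to 10 members at the unadjusted p in FSL vehicle against FRL vehicle, 0 to 349, 0 to 3 and 1 to 8 in responders against FSL vehicle, and 0, 0 and 0 to 4 in each of the other comparisons. The 10 members came without FSL vehicle 2, where 21.6% of all genes had such a p in either direction. In responders against FSL vehicle that fit gave 8 members, where 25.1% of genes had such a p. The 2 and the 1 came without FSL vehicle 3 (6.28% and 5.38% of genes). The mural minus endothelial difference ran from 0.40 to 1.12, -0.86 to -0.14, -0.34 to 0.37 and -0.73 to -0.39 in the 4 comparisons in this order. In non-responders against FSL vehicle the log2 fold change turned sign within its range for Cldn5 (-0.26 to 0.026), Pecam1 (-0.47 to 0.10), Flt1 (-0.19 to 0.14), Tek (-0.54 to 0.059), Acta2 (-1.33 to 1.17), Tagln (-0.99 to 0.52) and Myh11 (-1.10 to 0.94), and in responders against FSL vehicle for Rgs5 (-0.16 to 0.013). Scaling by another method and no filter turned no sign of a member and moved no count of members past the threshold. With the replicate number as a block in the fit of 12 libraries, 4 genes passed in FSL vehicle against FRL vehicle. With the block in the compared groups only, 2 genes passed there with 4 unadjusted members, against 2 in responders against FSL vehicle and 3 in responders against non-responders. The block changed no other call. The lowest member count in a library was 25, in Acta2, and the part of depth in its spread was not tested.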

Other observations

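Pericyte genes other than the members had log2 fold changes of both signs in FSL vehicle against FRL vehicle; which to name was decided with their values known. The 4 of 15 with negative values were as follows. Kcnj8 and Abcc9, the subunits of a potassium channel of brain pericytes, had -0.64 ± 0.29 and -0.36 ± 0.19, and Higd1b and Ndufa4l2, mitochondrial proteins used as pericyte markers, had -0.45 ± 0.36 and -0.19 ± 0.34. Of the 11 with positive values, Vtn, Tbx18 and Ifitm1 had 1.90 ± 0.62, 2.04 ± 0.77 and 2.09 ± 0.77. None of the 7 passed the adjusted p of edgeR's test. In responders against FSL vehicle the first 4 had 0.017 ± 0.29, 0.11 ± 0.19, 0.23 ± 0.37 and 0.22 ± 0.34, and the other 3 -1.68 ± 0.61, -2.59 ± 0.79 and -2.43 ± 0.79. That comparison shares the FSL vehicle libraries with the first.

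Transporters of the barrier also had values of both signs. The glucose transporter Slc2a1 had a log2 fold change of 0.32 ± 0.14 in FSL vehicle against FRL vehicle, the lipid transporter Mfsd2a -0.069 ± 0.15, the efflux pump Abcg2 -0.54 ± 0.40 and the thyroid hormone transporter Slco1c1 0.11 ± 0.14. The monocarboxylate transporter Slc16a1 had 0.28 ± 0.11 in non-responders against FSL vehicle (70.8 ± 4.64 CPM in non-responders against 58.2 ± 1.98 CPM in FSL vehicle, mean ± SD, n = 3 each), the smallest p of its list there and no overlap of groups, with an adjusted p of 0.976 by edgeR. In that comparison 7.78% of all genes did not overlap, in either direction.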
